A study of Mus musculus with 12 samples.

Results

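Control cells of the mouse mammary tumour lines 4T1 and EMT6 were compared with each other, each with 3 RNA-seq libraries, taken from a study of 12 libraries in which the remaining 6 are knockout (KO) libraries of the same lines. The 6 control libraries were chosen by their labels alone: title Control, genotype WT, cell line 4T1 or EMT6. The study, by its labels, looked at the effect of a guide RNA named sgNEDD4 in both lines; the KO libraries enter the results below only as an alternative setting. Culture medium was DMEM with serum, and libraries were made from mRNA captured on beads out of total RNA. Controls of both lines carry the genotype label WT and no treatment. The labels do not say if they hold Cas9 or a control guide, nor if the 3 libraries of a line came from separate cultures, so the p-values measure only the spread between these libraries, which may be technical. Each line is 1 deposited table and 1 cell line, so any difference between the tables in handling or sequencing cannot be told apart from the difference between the lines; all libraries carry the same batch label.

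4T1 and EMT6 are transplantable tumour lines that both arose in BALB/c mice and grow in that strain with an intact immune system. 4T1 was selected from a spontaneous mammary tumour by its resistance to a purine analogue and is known for spread to lung and other organs and for the neutrophils that accumulate in its hosts, whereas EMT6 was cultured from a mammary nodule transplant and is often used in studies of immune therapy. Mammary epithelium is a sheet of cells joined by cadherins, claudins and desmosomes on a laminin and collagen IV membrane, and carcinoma cells that lose those contacts often gain fibroblast genes such as collagen I, a shift termed epithelial-mesenchymal transition (EMT).

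Total counts were 13705612 to 19203524 per control library, so that 3 counts corresponded to 0.156 to 0.219 CPM (library-scaled counts), and intervals or limits from counts below cover counting error only. Log2 counts correlated across genes at 0.992 to 0.994 between libraries of a line and at 0.736 to 0.746 between lines. Levels are given as FPKM, counts scaled by exon length and library total, as deposited, with the SD over 3 libraries after ±. Differences are log2 changes of 4T1 minus EMT6 from edgeR's quasi-likelihood test, with their SE after ±, and a gene was called where the Benjamini-Hochberg adjusted p over all 13301 tested genes was under 0.05. Of the tested genes, 9973 were called (75.0%), 5080 higher in 4T1 (38.2%) and 4893 higher in EMT6 (36.8%), and libraries of the lines did not overlap for 10204 (76.7%). Since 3 of 4 genes were called, a called gene is the usual case here, and so is a gene whose libraries do not overlap. A called gene with a log2 change of at least 1 was less common (3959 genes, 29.8%), with 2075 higher in 4T1 (15.6%) and 1884 higher in EMT6 (14.2%). Counts for gene lists below stand beside these shares. The median log2 change over all tested genes was 0.01 and the median size of the change was 0.56. The reference genome is of another strain, C57BL/6, than these BALB/c lines; its effect on genes that vary between strains was not tested.

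**Figure D1:**
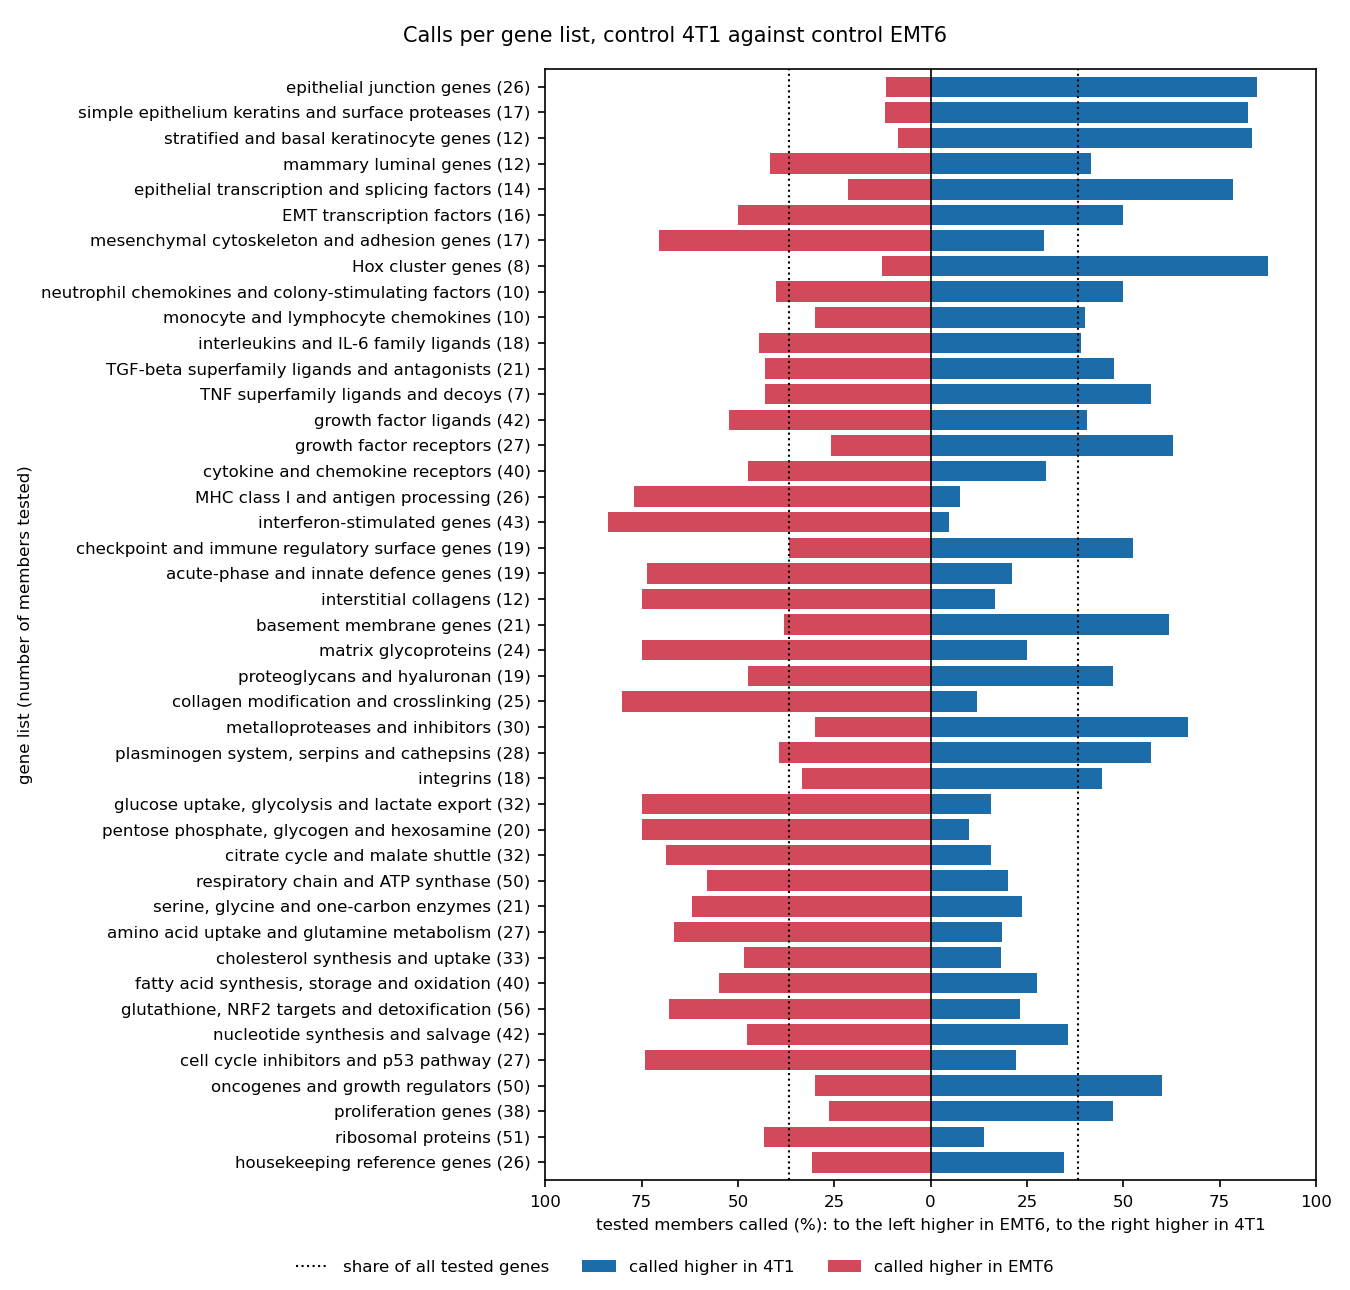
Share of the tested members of each gene list (rows, number tested in brackets) called higher in EMT6 (red bars, to the left) or higher in 4T1 (blue bars, to the right), in percent, with dotted lines at the share over all tested genes, 36.8% and 38.2%. Epithelial lists extend mainly to the right, except the mammary luminal list, with 5 members called each way. Interferon, antigen processing, collagen and most metabolic lists extend mainly to the left.

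Most genes that hold epithelial cells together were higher in 4T1, and several had no count in EMT6. Cdh1 (ENSMUSG00000000303, chromosome 8, 107329983 to 107396878 in the tables, whose genome build the tables do not name) encodes E-cadherin, the adhesion protein of adherens junctions, and stood at 135, 138 and 135 FPKM in 4T1 and 0, 0 and 0.02 FPKM in EMT6. The line totals were 27895 and 2 counts, a depth-scaled ratio of 16110 (95% counting interval 4460 to 133100). All 4T1 libraries were high and all EMT6 libraries at or next to 0. Epcam, an adhesion molecule of the epithelial surface, stood at 155, 145 and 147 FPKM in 4T1 and 1.15, 1.25 and 1.16 FPKM in EMT6, a difference of 6.96 ± 0.09 (edgeR adjusted p = 1e-21). The groups did not overlap, but unlike Cdh1 the gene was read in every EMT6 library. The claudins Cldn3 and Cldn4 seal tight junctions, and the desmosomal cadherin Dsg2 joins cells to their keratin network. Cldn4 was at 81.4, 72.1 and 77.6 FPKM in 4T1, Cldn3 at 13.6, 10.7 and 14.0 FPKM and Dsg2 at 10.7, 11.1 and 9.73 FPKM. All 3 had 0 counts in every EMT6 library, so that with 3 counts per library as the limit they were at least 792-fold, at least 91.0-fold and at least 493-fold higher in 4T1. Cldn7, another epithelial claudin, was under 0.05 FPKM in all 6 libraries.

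Over the whole list of 30 junction genes, 26 were tested, 22 were called higher in 4T1 and 3 higher in EMT6, with 16 and 1 at a log2 change of at least 1. The list median was 4.01, beside 0.01 over all genes, and it is the same with genes at 0 set to their lower bound. The members called higher in EMT6, named after their values were seen, were Cdh3 (0.08 ± 0.044 FPKM in 4T1 and 7.47 ± 0.34 FPKM in EMT6), which encodes P-cadherin, the desmosomal plaque gene Pkp2 (-0.92 ± 0.07) and the polarity scaffold Patj (-0.41 ± 0.07). Tjp1, the tight junction scaffold ZO-1, was not called (0.08 ± 0.07, adjusted p = 0.293, edgeR).

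Promoters of 2 junction genes are shown because Cldn4, at 0 in EMT6, and Epcam both hold the letters CAGGTG, the E-box that SNAIL and ZEB proteins are known to bind. Windows ran from 250 bases before to 50 after the gene start in RefSeq (GRCm38.p6), and both strands were searched, so CACCTG on the printed strand also counts. The E-box is not limited to genes high in 4T1: Patj, higher in EMT6, holds 3. Of the 30 junction genes, 17 had a window, of which 11 (64.7%) held the E-box, against 5413 of 27025 windows of all genes (20.0%). The windows of Cldn4 (chr5:134946885-134947184, minus strand) and Epcam (chr17:87635729-87636028, plus strand) are given 5′ to 3′ on the strand of the gene, with E-boxes in capitals. They begin at -14 and 11 in Cldn4 and at -187 and -19 in Epcam, counted from the gene start as 0.
Cldn4: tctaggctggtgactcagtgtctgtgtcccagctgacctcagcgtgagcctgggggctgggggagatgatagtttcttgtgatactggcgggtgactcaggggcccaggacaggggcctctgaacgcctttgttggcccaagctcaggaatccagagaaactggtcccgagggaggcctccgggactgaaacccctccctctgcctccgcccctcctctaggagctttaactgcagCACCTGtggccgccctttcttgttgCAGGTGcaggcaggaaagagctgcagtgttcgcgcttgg
Epcam: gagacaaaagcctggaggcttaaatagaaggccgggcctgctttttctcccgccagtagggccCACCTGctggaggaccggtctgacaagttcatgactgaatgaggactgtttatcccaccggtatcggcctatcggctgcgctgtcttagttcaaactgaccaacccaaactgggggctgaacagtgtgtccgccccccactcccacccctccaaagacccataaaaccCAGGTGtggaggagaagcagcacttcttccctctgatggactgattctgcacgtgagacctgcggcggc
A match describes the letters only, and binding was not measured in these libraries.

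Keratins and surface proteases of simple epithelium followed the junction genes. Krt8 and Krt18 pair into the filaments of simple epithelia. Krt18 stood at 957, 907 and 967 FPKM in 4T1 and 72.7, 81.0 and 75.0 FPKM in EMT6 (3.63 ± 0.07) and Krt8 (overlaps Gm36026) at 664, 646 and 655 FPKM in 4T1 and 273, 331 and 276 FPKM in EMT6 (1.16 ± 0.07). EMT6 libraries thus were not without keratin: Krt8 exceeded 270 FPKM in each. The membrane serine protease St14 (matriptase) was at 37.2 ± 1.1 FPKM in 4T1 and 0.0833 ± 0.021 FPKM in EMT6, and Prss22 at 49.1, 51.4 and 49.6 FPKM in 4T1 and 0.09 ± 0.017 FPKM in EMT6. Of the 22 genes listed, 17 were tested, 14 called higher in 4T1 and 2 higher in EMT6, with a median of 1.54. The basal and stratified genes that could be tested had the same direction with 1 clear exception. Of 28 listed, 12 were tested, 10 were higher in 4T1 and 1 in EMT6. The remaining 16 did not pass the filter on low counts, 10 of them without a count in either line. Members passed it through the line in which they were high, so these counts describe the genes read and not the family. Lama3, a chain of the laminin that anchors epithelium to its membrane, stood at 8.48 ± 0.50 FPKM in 4T1 and 0.137 ± 0.055 FPKM in EMT6. Krt14, a basal keratin, was low in both (3.60 ± 0.87 FPKM in 4T1 and 0.95 ± 0.31 FPKM in EMT6), and Krt5 had no count in any library. The exception was Trp63, which encodes the basal transcription factor p63, at 0.01, 0 and 0 FPKM in 4T1 and 4.86, 4.51 and 5.32 FPKM in EMT6. It had 1 count in 4T1 and 2133 in EMT6, a ratio of 1846 (95% counting interval 331 to 72960).

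Mammary luminal genes were called in both directions. Of 31 listed, 12 were tested, 5 called higher in 4T1 and 5 in EMT6, with a median of 0.05. This is near the shares of all tested genes (38.2% and 36.8%). Gata3 (overlaps 4930412O13Rik 9230102O04Rik), a transcription factor of luminal cells, was at 35.8 ± 0.71 FPKM in 4T1 and 0.3 ± 0.10 FPKM in EMT6, 6.89 ± 0.12. The oestrogen receptor gene Esr1 was low in both but higher in EMT6 (0.64 ± 0.010 FPKM in 4T1 and 3.42 ± 0.20 FPKM in EMT6), and Pgr, the progesterone receptor gene, had no count in any library. Ly6a, which encodes the surface antigen Sca-1, stood at 312, 338 and 308 FPKM in EMT6 with 0 counts in 4T1, at least 1906-fold higher in EMT6. Procr, a surface receptor also used to mark mammary stem cells, went the other way, 77.4 ± 1.8 FPKM in 4T1 and 15.7 ± 1.5 FPKM in EMT6 (2.31 ± 0.07).

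Transcription and splicing factors of epithelium were called higher in 4T1 for 11 of 14 tested members (16 listed) and higher in EMT6 for 3; the median was 3.47, or 2.66 with genes at 0 at their bound. Grhl2 (overlaps Gm16136), which maintains epithelial junction genes, stood at 6.9, 7.66 and 7.0 FPKM in 4T1 and 0, 0 and 0.01 FPKM in EMT6, a count ratio of 3205 (95% counting interval 575 to 126600). Esrp1, the splicing factor of epithelial isoforms, and Ovol1, a zinc finger repressor, were at 6.55 ± 0.38 FPKM and 2.85 ± 0.25 FPKM in 4T1 with 0 counts in EMT6 (at least 234-fold and at least 56.3-fold).

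The factors that drive EMT were not all on the EMT6 side. Of 22 listed, 16 were tested, 8 were called higher in each line, and the median was -0.08. Of all tested genes, 38.2% were called higher in 4T1 and 36.8% in EMT6. Snai2 (SLUG) was read in EMT6 at 9.41, 8.39 and 11.5 FPKM and had 0 counts in 4T1, at least 97.8-fold higher in EMT6. Zeb1, a repressor of Cdh1, was at 0.01, 0.01 and 0.04 FPKM in 4T1 and 3.28, 2.8 and 2.89 FPKM in EMT6 (-7.36 ± 0.26). Both genes separated the lines without overlap, as did 76.7% of all tested genes. Prrx1 (overlaps Gm20471), a homeobox gene of mesenchyme, was at 0.0733 ± 0.015 FPKM in 4T1 and 8.13 ± 0.25 FPKM in EMT6 (-6.76 ± 0.13). Snai1 differed far less, 15.5, 16.1 and 15.7 FPKM in 4T1 and 26.6, 26.3 and 18.8 FPKM in EMT6 (-0.60 ± 0.12, edgeR adjusted p = 0.000314). Zeb2 (overlaps Zeb2os) was instead higher in 4T1, 3.88 ± 0.20 FPKM in 4T1 and 1.84 ± 0.12 FPKM in EMT6 (1.07 ± 0.08). Foxc2, a forkhead gene of mesenchyme, stood at 9.36, 9.26 and 9.61 FPKM in 4T1 with 0 counts in EMT6 (at least 145-fold). Twist1 was called higher in 4T1 (22.1 ± 1.6 FPKM in 4T1 and 16.3 ± 0.33 FPKM in EMT6, 0.44 ± 0.08); between the KO libraries of the lines it was -0.11.

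Of the mesenchymal cytoskeleton and adhesion genes, 17 of 29 were tested, 12 were called higher in EMT6 and 5 in 4T1, with a median of -0.85. Vim, the mesenchymal intermediate filament gene, was among the abundant transcripts of both lines: 480.4, 484 and 524 FPKM in 4T1 and 612, 643 and 576 FPKM in EMT6. The groups did not overlap, yet the difference was -0.30 ± 0.07. Smooth muscle actin Acta2 stood at 0, 0 and 0.03 FPKM in 4T1 and 17.5, 21.5 and 16.1 FPKM in EMT6, with 1 count in 4T1 against 2088 in EMT6, a ratio of 1807 (95% counting interval 324 to 71420). The membrane glycoprotein gene Pdpn was at 0.0367 ± 0.0058 FPKM in 4T1 and 49.6 ± 0.98 FPKM in EMT6, and the neural adhesion gene Ncam1 at 14.6 ± 1.3 FPKM in EMT6 with 0 counts in 4T1 (at least 629-fold). N-cadherin, Cdh2, which often replaces Cdh1 in EMT, had no count in any library. The labels call both lines mammary tumour cells. By the markers of simple epithelium (Krt8, Krt18, Epcam, Cdh1, Cldn3, Cldn7), 4T1 had 5 of 6 above 10 FPKM and EMT6 had 2, Krt8 and Krt18, with Cdh1 and Cldn3 at 2 and 0 counts.

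**Figure D2:**
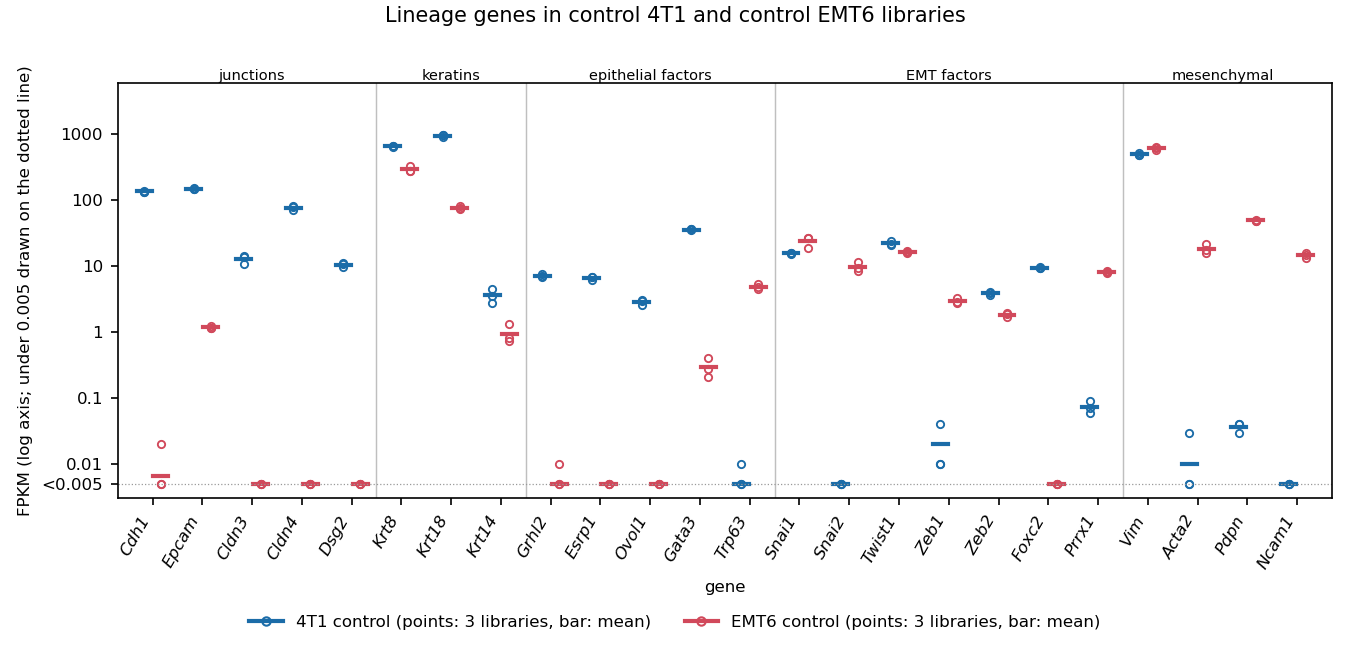
FPKM (log axis, values under 0.005 on the dotted line) of lineage genes in control 4T1 (blue) and control EMT6 (red); points are the 3 libraries of a line and bars their mean. Cdh1, Cldn4 and Esrp1 lie above 6 FPKM in 4T1 and at or next to 0 in EMT6. Snai2 and Zeb1 lie at 2.8 FPKM or more in EMT6 and at or next to 0 in 4T1, and Vim is above 480 FPKM in all 6 libraries.

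Positional identity genes also differed. Of 38 Hox genes listed, 8 passed the filter on low counts, all of them Hoxa genes, of which 7 were called higher in 4T1 and 1 higher in EMT6. Hoxa10 stood at 9.21 ± 0.32 FPKM in 4T1 and 0.0967 ± 0.032 FPKM in EMT6 (6.49 ± 0.19) and Hoxa2 at 9.89 ± 1.0 FPKM in 4T1 and 0.453 ± 0.15 FPKM in EMT6 (4.40 ± 0.20). Members passed this filter through the line in which they were high, so the count of 7 describes the genes read and not the family. Of 36 imprinted and germline genes, 4 were tested, 3 higher in 4T1 and 0 in EMT6, and the same limit holds for these counts. Igf2r (overlaps Airn), an imprinted receptor that clears IGF2, was at 40.6 ± 3.3 FPKM in 4T1 and 4.85 ± 0.053 FPKM in EMT6.

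Transcripts of neutrophil-directed ligands were read in both lines, with different members high in each. Csf3 encodes G-CSF, the growth factor of neutrophils, and stood at 144, 139 and 147 FPKM in 4T1 and 14.9, 14.7 and 12.8 FPKM in EMT6. All 4T1 libraries lay above all EMT6 libraries, by 3.34 ± 0.07 (10.2-fold, edgeR adjusted p = 1.91e-18). Csf2, which encodes GM-CSF, was at 6.73, 4.09 and 5.65 FPKM in 4T1 with 0 counts in EMT6, at least 24.9-fold higher. Csf1, the growth factor of macrophages, was higher in EMT6, 29.9, 28.2 and 29.2 FPKM in 4T1 and 219, 201 and 228 FPKM in EMT6 (-2.89 ± 0.06), whereas Il34, the other ligand of its receptor, was higher in 4T1 (14.2 ± 0.64 FPKM in 4T1 and 2.43 ± 0.78 FPKM in EMT6, 2.53 ± 0.16). Of the chemokines that bind CXCR2, Cxcl2, Cxcl3 and Cxcl5 were higher in EMT6. Cxcl2 was at 0.12, 0.29 and 0.11 FPKM in 4T1 and 26.5, 22.6 and 33.7 FPKM in EMT6 (-7.29 ± 0.26) and Cxcl3 had 2 counts in 4T1 and 1098 in EMT6, a ratio of 475 (95% counting interval 131 to 3929). Cxcl5 was abundant in both and higher in EMT6, 113 ± 3.8 FPKM in 4T1 and 312 ± 29 FPKM in EMT6 (-1.46 ± 0.07); between the KO libraries it was higher in 4T1, at 2.49. Cxcl1 overlapped, 116, 99.4 and 105 FPKM in 4T1 and 98.7, 104 and 83.5 FPKM in EMT6, and was not called (0.16 ± 0.08, edgeR adjusted p = 0.0809), although it was called without EMT6 replicate 2 (0.22, adjusted p = 0.019). In all, 10 of 11 listed genes were tested, 5 higher in 4T1 and 4 in EMT6, each by a log2 change of at least 1. Some of the members higher in 4T1 are not named here.

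Chemokines of monocytes and lymphocytes were fewer. Of 24 listed, 10 were tested, with 4 higher in 4T1 and 3 in EMT6. Ccl20, the CCR6 ligand, was at 5.63 ± 0.37 FPKM in 4T1 and 0.197 ± 0.11 FPKM in EMT6 (4.84 ± 0.30), and Ccl5 (RANTES) at 15.8 ± 2.2 FPKM in 4T1 and 1.82 ± 0.51 FPKM in EMT6 (3.14 ± 0.19). The membrane-bound chemokine Cx3cl1 was at 52.1, 47.9 and 43.6 FPKM in 4T1 and 19.4, 20.1 and 12.3 FPKM in EMT6 (1.47 ± 0.21), with EMT6 replicate 3 below the other EMT6 libraries. Ccl2, which draws monocytes, was low in both lines and higher in EMT6 (0.32 ± 0.17 FPKM in 4T1 and 3.35 ± 0.47 FPKM in EMT6), as was Ccl9 (0.44 ± 0.18 FPKM in 4T1 and 5.04 ± 0.98 FPKM in EMT6). Cxcl12, the ligand of CXCR4, had 1 count in 4T1 and 0 in EMT6.

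Among interleukins, epithelial alarm signals stood out by size in 4T1. Il1a (overlaps Gm14023) was at 82.2, 75.0 and 71.9 FPKM in 4T1 and 0.04, 0.03 and 0 FPKM in EMT6, and Tslp, the epithelial cytokine of type 2 immunity, at 39.6, 39.2 and 35.0 FPKM in 4T1 and 0.05, 0.04 and 0 FPKM in EMT6. Their counts were 6782 against 2 and 2270 against 2, ratios of 3918 (95% counting interval 1084 to 32360) and 1311 (95% counting interval 363 to 10830). Il23a, the p19 chain of IL-23, was at 17.5 ± 0.97 FPKM in 4T1 and 0.803 ± 0.14 FPKM in EMT6 (4.46 ± 0.14). Il33, another alarm cytokine, was higher in EMT6 (2.06 ± 0.31 FPKM in 4T1 and 12.2 ± 0.47 FPKM in EMT6, -2.57 ± 0.12), and so was Il6, at low level (0.13, 0.3 and 0 FPKM in 4T1 and 1.7, 1.33 and 1.59 FPKM in EMT6). Lif, an IL-6 family ligand, overlapped between the lines, 27.7, 29.0 and 26.7 FPKM in 4T1 and 30.2, 28.8 and 26.6 FPKM in EMT6; the difference of -0.04 ± 0.07 was not called (edgeR adjusted p = 0.617). Over the 18 tested of 29 listed, 7 were higher in 4T1 and 8 in EMT6, near the shares of all genes.

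The 3 TGF-beta genes had 3 different patterns. Tgfb1 stood at 44.0, 44.6 and 43.0 FPKM in 4T1 and 8.73, 8.89 and 6.4 FPKM in EMT6, higher in 4T1 by 2.46 ± 0.11 (5.49-fold). Tgfb2 (overlaps Gm35546) was higher in EMT6, 0.66, 0.76 and 0.67 FPKM in 4T1 and 16.5, 15.2 and 13.2 FPKM in EMT6 (-4.42 ± 0.12). Tgfb3 (overlaps Ttll5) overlapped between the lines and was not called, 14.3 ± 1.3 FPKM in 4T1 and 14.0 ± 0.98 FPKM in EMT6 (0.03 ± 0.08, edgeR adjusted p = 0.78). Of their receptors, Tgfbr1 was higher in 4T1 (14.9 ± 0.73 FPKM in 4T1 and 1.55 ± 0.14 FPKM in EMT6, 3.27 ± 0.09) and Tgfbr2 higher in EMT6 (32.3 ± 0.42 FPKM in 4T1 and 62.2 ± 2.5 FPKM in EMT6, -0.95 ± 0.06), while the co-receptor Tgfbr3 was at 1.77 ± 0.085 FPKM in 4T1 and 23.8 ± 1.7 FPKM in EMT6 (-3.75 ± 0.08). Bmp4 and Bmp7 were each read almost only in 1 line. Bmp4 (overlaps Gm15222) stood at 24.8, 25.7 and 23.8 FPKM in EMT6 with 0 counts in 4T1 (at least 276-fold), and Bmp7 at 16.7, 16.5 and 15.3 FPKM in 4T1 with 1 count in EMT6, a ratio of 3367 (95% counting interval 604 to 133000). Gdf15, a stress-induced member of the family, was at 0, 0 and 0.04 FPKM in 4T1 and 36.0, 37.4 and 44.0 FPKM in EMT6, a ratio of 3277 (95% counting interval 588 to 129500). Inhba, the activin A subunit, was higher in 4T1 (20.8 ± 2.4 FPKM in 4T1 and 5.14 ± 0.64 FPKM in EMT6). The list held 30 genes, 21 tested, 10 higher in 4T1 and 9 in EMT6, beside 38.2% and 36.8% of all tested genes.

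Of 18 genes of the TNF superfamily, 7 were tested, 4 higher in 4T1 and 3 in EMT6. Tnfsf12 (overlaps Tnfsf13os Tnfsfm13), which encodes TWEAK, had 1 counts in 4T1 and stood at 6.69 ± 0.42 FPKM in EMT6, a ratio of 452 (95% counting interval 80.7 to 17880). Tnfsf9 (overlaps Gm11110), a ligand of activated T cells, was at 11.8 ± 1.3 FPKM in 4T1 and 5.26 ± 0.83 FPKM in EMT6 (1.17 ± 0.14), with -0.38 between the KO libraries. Tnf itself was low in both (0.447 ± 0.25 FPKM in 4T1 and 1.07 ± 0.055 FPKM in EMT6), and Tnfrsf11b, the decoy receptor osteoprotegerin, was at 1.42 ± 0.22 FPKM in EMT6 with 0 counts in 4T1 (at least 19.8-fold).

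In several growth factor families, different members were high in the lines. Of 57 ligands, 42 were tested, 17 higher in 4T1 and 22 in EMT6, median -0.72. Vegfa was higher in EMT6, 15.9, 15.7 and 21.8 FPKM in 4T1 and 78.9, 69.1 and 74.8 FPKM in EMT6 (-2.06 ± 0.11), and Vegfc, which acts on lymphatic vessels, was at 3.10 ± 0.21 FPKM in 4T1 with 0 counts in EMT6 (at least 42.9-fold). Pdgfb was at 10.6 ± 0.14 FPKM in 4T1 with 0 counts in EMT6 (at least 250.4-fold). Sema3c, a secreted semaphorin, was at 169, 173 and 177 FPKM in EMT6 with 0 counts in 4T1, at least 6123-fold higher, the highest bound among the named genes. Wnt7a stood at 16.9 ± 0.87 FPKM in 4T1 with 0 counts in EMT6 (at least 304-fold). The EGF-receptor ligands Areg and Hbegf were read in both lines, Areg higher in EMT6 (72.6 ± 2.8 FPKM in 4T1 and 139.9 ± 14 FPKM in EMT6) and Hbegf in 4T1 (43.7 ± 1.8 FPKM in 4T1 and 13.3 ± 1.0 FPKM in EMT6). Ereg, another such ligand, had 0 counts in 4T1 and 6 in EMT6.

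Growth factor receptors were called higher in 4T1 for 17 of 27 tested genes and higher in EMT6 for 7, median 0.87. The shares of all tested genes were 38.2% and 36.8%. Egfr (overlaps Egfros), the receptor of Areg and Hbegf, was at 0.03, 0.01 and 0.03 FPKM in 4T1 and 4.38, 4.17 and 3.85 FPKM in EMT6 (-7.41 ± 0.20). Erbb3, its kinase-impaired partner, was higher in 4T1 (9.41 ± 0.30 FPKM in 4T1 and 1.07 ± 0.19 FPKM in EMT6, 3.13 ± 0.11), and Erbb2 (overlaps Mien1) was less different (14.9 ± 0.41 FPKM in 4T1 and 7.77 ± 0.48 FPKM in EMT6, 0.94 ± 0.07). The FGF receptors were exchanged. Fgfr1 had 1 count in 4T1 and was at 13.8 ± 0.31 FPKM in EMT6, a ratio of 6122 (95% counting interval 1098 to 241800). Fgfr2 (overlaps Gm5903 Ate1 Nsmce4a Tacc2), the receptor of epithelium, was at 11.8 ± 1.2 FPKM in 4T1 with 0 counts in EMT6 (at least 693-fold). Met, the receptor of hepatocyte growth factor, was high in both (36.0 ± 0.25 FPKM in 4T1 and 77.2 ± 3.2 FPKM in EMT6), while its ligand Hgf had 0 counts in 4T1 and 23 in EMT6. Pdgfra was at 5.25 ± 0.49 FPKM in 4T1 and 5.55 ± 0.32 FPKM in EMT6 and not called (edgeR adjusted p = 0.388), and Pdgfrb had 0 counts in 4T1 and 0.953 ± 0.25 FPKM in EMT6 (at least 25.9-fold).

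Cytokine receptors were called higher in EMT6 for 19 of 40 tested genes (52 listed) and higher in 4T1 for 12. The shares of all tested genes were 36.8% and 38.2%. Osmr, the oncostatin M receptor, was at 1.21 ± 0.090 FPKM in 4T1 and 9.39 ± 0.62 FPKM in EMT6 (-2.96 ± 0.08), Il6ra (overlaps Gm42809) at 1.95 ± 0.025 FPKM in 4T1 and 5.75 ± 0.61 FPKM in EMT6 and Il1r1, the receptor of IL-1, at 4.29 ± 0.55 FPKM in 4T1 and 9.51 ± 0.38 FPKM in EMT6. Il1a and its receptor were thus higher in different lines. Lifr and Cxcr4 had 1 count each over the 6 libraries.

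**Figure D3:**
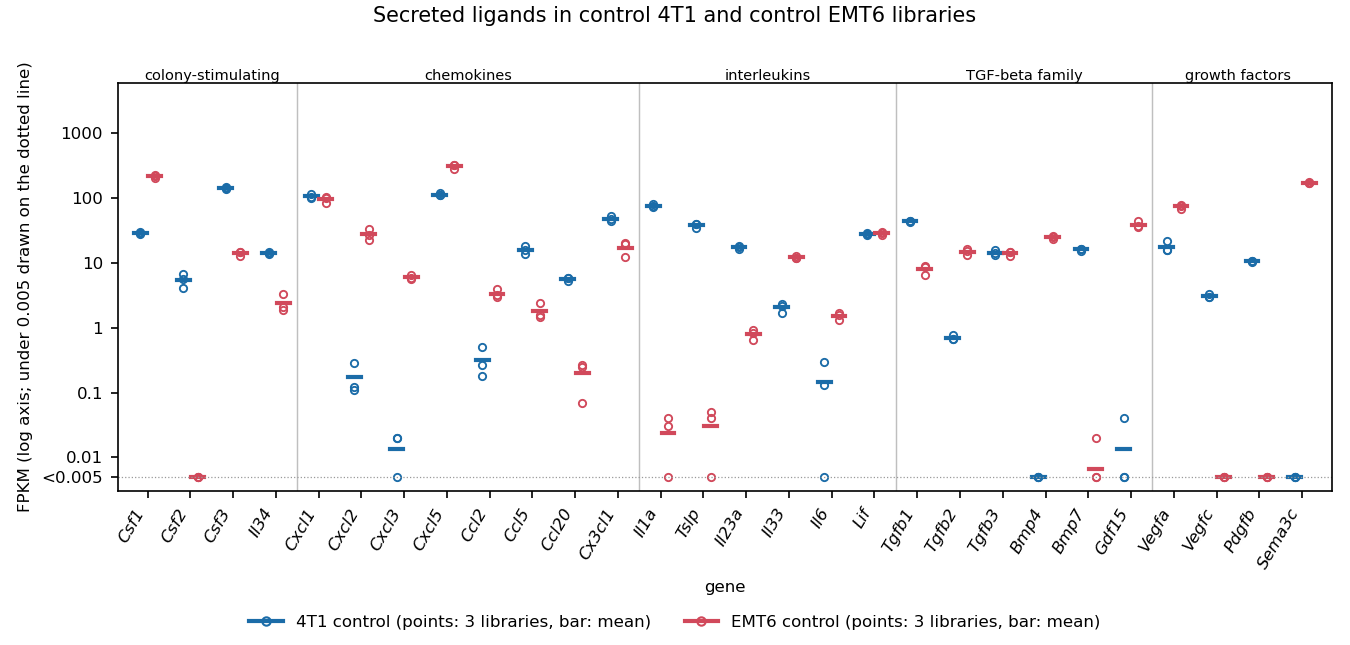
FPKM (log axis, values under 0.005 on the dotted line) of secreted ligands in control 4T1 (blue) and control EMT6 (red); points are the 3 libraries of a line and bars their mean. Csf2, Il1a, Tslp, Bmp7, Vegfc and Pdgfb are above 2 FPKM in 4T1 and at or next to 0 in EMT6, Cxcl3, Bmp4, Gdf15 and Sema3c show the reverse, and Cxcl1, Lif and Tgfb3 overlap.

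Interferon-stimulated genes, which cells raise after interferon or nucleic acid sensing, were higher in EMT6. Of 48 listed, 43 were tested, 36 called higher in EMT6 and 2 in 4T1, with 26 and 0 at a log2 change of at least 1; the median was -1.32. Gbp2, a guanylate-binding protein of vacuole defence, stood at 0.86, 0.74 and 0.7 FPKM in 4T1 and 67.3, 66.9 and 56.5 FPKM in EMT6 (-6.36 ± 0.12, 82.2-fold). Its neighbour Gbp7 was at 0.14 ± 0.078 FPKM in 4T1 and 21.6 ± 1.9 FPKM in EMT6 (-7.23 ± 0.17). Isg15, a ubiquitin-like modifier, was at 5.81, 5.22 and 3.63 FPKM in 4T1 and 40.1, 33.9 and 43.3 FPKM in EMT6 (-2.98 ± 0.15). For these genes the lowest EMT6 library exceeded the highest 4T1 library. Of the regulators, Irf1 (overlaps Gm17334) was at 9.15 ± 0.88 FPKM in 4T1 and 14.0 ± 0.53 FPKM in EMT6 (-0.61 ± 0.08) and Irf7 (overlaps Phrf1) at 1.64 ± 0.30 FPKM in 4T1 and 7.3 ± 1.1 FPKM in EMT6 (-2.15 ± 0.14). Ifit1, often used as a reporter of type I interferon, was low in both lines (0.603 ± 0.20 FPKM in 4T1 and 1.33 ± 0.27 FPKM in EMT6).

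The promoter windows of Gbp2 and Isg15 are shown because this list shares the interferon-stimulated response element, here GAAA, then 2 bases of any kind, then GAAA, searched on both strands. It was found in 18 of 34 members with a window (52.9%) and in 943 of 27025 windows of all genes (3.49%). The element begins at -59 in Gbp2 (chr3:142620413-142620712, plus strand). In Isg15 (chr4:156200769-156201068, minus strand) 3 matches run into each other, starting at -78. Capitals mark the matches.
Gbp2: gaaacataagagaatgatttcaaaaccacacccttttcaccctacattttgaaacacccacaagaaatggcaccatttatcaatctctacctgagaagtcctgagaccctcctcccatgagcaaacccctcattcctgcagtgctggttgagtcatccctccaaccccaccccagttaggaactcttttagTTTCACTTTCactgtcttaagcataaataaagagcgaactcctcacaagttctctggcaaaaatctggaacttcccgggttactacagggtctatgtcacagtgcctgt
Isg15: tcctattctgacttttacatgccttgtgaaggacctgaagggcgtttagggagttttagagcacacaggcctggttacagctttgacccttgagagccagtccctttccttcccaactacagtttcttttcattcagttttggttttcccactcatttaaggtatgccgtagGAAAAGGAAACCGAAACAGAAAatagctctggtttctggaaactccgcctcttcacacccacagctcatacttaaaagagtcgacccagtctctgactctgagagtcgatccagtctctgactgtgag

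MHC class I antigen processing genes pointed the same way, while the class I chain genes B2m, H2-D1 and H2-K1 differed little or were not called. Of 27 listed, 26 were tested, 20 were higher in EMT6 and 2 in 4T1, with a median of -1.62. The immunoproteasome subunits Psmb8 and Psmb9 (overlaps Tap1) were at 12.6 ± 1.1 FPKM in 4T1 and 69.0 ± 2.9 FPKM in EMT6 and at 1.78 ± 0.26 FPKM in 4T1 and 14.0 ± 0.60 FPKM in EMT6, respectively. The peptide transporter Tap1 (overlaps Psmb9) was at 4.95, 3.98 and 5.08 FPKM in 4T1 and 21.8, 23.6 and 21.9 FPKM in EMT6 (-2.27 ± 0.08), and the class I transactivator Nlrc5 (overlaps 9330175E14Rik) at 3.37 ± 0.25 FPKM in 4T1 and 10.7 ± 1.2 FPKM in EMT6 (-1.67 ± 0.09). The shared light chain B2m was among the most abundant transcripts and overlapped, 1766, 1648 and 1635 FPKM in 4T1 and 1784, 1722 and 1518 FPKM in EMT6; its difference of 0.01 ± 0.07 was not called (edgeR adjusted p = 0.946). H2-D1 differed by -0.16 ± 0.06 (259 ± 8.7 FPKM in 4T1 and 289 ± 3.4 FPKM in EMT6), a call lost without 4T1 replicate 2 (edgeR adjusted p = 0.056). H2-K1 was at 17.4 ± 1.0 FPKM in 4T1 and 14.2 ± 3.2 FPKM in EMT6 and not called (adjusted p = 0.0874, edgeR), but was called without EMT6 replicate 1 (0.43, adjusted p = 0.00212). Class I genes are near-identical to one another and differ between mouse strains, so their levels are uncertain.

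Checkpoint and other immune surface genes had 10 members higher in 4T1 and 7 in EMT6 of 19 tested, beside 38.2% and 36.8% of all tested genes. Cd274 (PD-L1) was low in both and higher in EMT6, 0.79, 0.85 and 0.77 FPKM in 4T1 and 1.68, 1.43 and 2.29 FPKM in EMT6 (-1.17 ± 0.21), and Pdcd1lg2 (PD-L2) had no count. Nt5e (CD73), which makes adenosine, was at 39.4, 37.0 and 38.9 FPKM in 4T1 and 18.1, 17.8 and 24.3 FPKM in EMT6 (0.94 ± 0.10). Serpinb9, an inhibitor of granzyme B, was at 2.31 ± 0.19 FPKM in 4T1 and 48.8 ± 2.6 FPKM in EMT6 (-4.39 ± 0.08). Vcam1 was at 8.70 ± 0.48 FPKM in 4T1 and 0.873 ± 0.078 FPKM in EMT6 (3.31 ± 0.09), whereas the KO libraries of the lines differed by -0.01.

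Innate defence and acute-phase genes were mostly higher in EMT6. Of 34 listed, 19 were tested, 14 were higher in EMT6 and 4 in 4T1, median -2.12. Ptx3 (overlaps Veph1), a soluble pattern recognition protein, was at 244, 227 and 349.6 FPKM in EMT6 with 0 counts in 4T1 (at least 3636-fold). Complement C3 was at 16.2, 16.6 and 16.1 FPKM in 4T1 and 169.7, 163 and 171 FPKM in EMT6 (-3.37 ± 0.06). Lcn2 (lipocalin 2), which binds bacterial iron carriers, was at 18.4, 17.4 and 18.5 FPKM in 4T1 and 73.4, 68.4 and 93.3 FPKM in EMT6 (-2.12 ± 0.10); between the KO libraries the sign was opposite, 6.57. S100a8 and S100a9, abundant in neutrophils, had at most 0.63 FPKM in any library.

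The collagen I genes were high in EMT6 and next to 0 in 4T1. Col1a2 (ENSMUSG00000029661, chromosome 6, 4504814 to 4541544 in the tables; overlaps Gm43921) and Col1a1 encode the chains of collagen I. Col1a2 stood at 0, 0.01 and 0 FPKM in 4T1 and 202, 199 and 194 FPKM in EMT6, with 2 counts in 4T1 and 127594 in EMT6, a ratio of 55220 (95% counting interval 15290 to 456000). Col1a1 was at 0.09, 0.09 and 0.14 FPKM in 4T1 and 173, 169.8 and 152 FPKM in EMT6 (-10.55 ± 0.12, edgeR adjusted p = 8.47e-22). No EMT6 library was under 150 FPKM for either gene and no 4T1 library over 0.15. Col12a1, which decorates collagen I fibrils, was at 0.143 ± 0.035 FPKM in 4T1 and 69.3 ± 5.1 FPKM in EMT6 (-8.96 ± 0.12) and the microfibrillar Col6a1 at 14.3 ± 0.31 FPKM in 4T1 and 52.1 ± 5.9 FPKM in EMT6 (-1.87 ± 0.08). Col3a1, the usual companion of collagen I, had 0 counts in 4T1 and 25 in EMT6. The list headed interstitial collagens also holds collagens of other kinds. Of its 32 genes, 12 were tested, 9 higher in EMT6 and 2 in 4T1. Those 2, named after their values were seen, were Col7a1 (1.94 ± 0.09) and Col18a1 (overlaps Slc19a1, 4.19 ± 0.06), neither of them an interstitial collagen.

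The enzymes that finish and crosslink collagen had the same direction. Of 29 listed, 25 were tested, 20 higher in EMT6 and 3 in 4T1, with a median of -1.08. Lox (overlaps Gm41724), lysyl oxidase, stood at 0, 0 and 0.02 FPKM in 4T1 and 44.2, 45.4 and 42.2 FPKM in EMT6, a count ratio of 9394 (95% counting interval 1686 to 371100). Loxl2 was at 0.0567 ± 0.032 FPKM in 4T1 and 19.8 ± 1.8 FPKM in EMT6 (-8.38 ± 0.17). The collagen chaperone Fkbp10 (overlaps Nt5c3b) was at 0.0333 ± 0.023 FPKM in 4T1 and 77.8 ± 3.3 FPKM in EMT6 (-10.90 ± 0.15), and P3h4 of the lysyl hydroxylation complex had 1 count in 4T1 and 2599 in EMT6. The general hydroxylases P4ha2 and Plod2 (overlaps B430319G15Rik) were read in both lines and differed by -1.12 ± 0.11 and -1.07 ± 0.07.

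Basement membrane genes divided by chain. Of 28 listed, 21 were tested, 13 higher in 4T1 and 8 in EMT6. Col4a1 and Col4a2, which share a promoter region and overlap in the tables, were at 97.4, 98.3 and 98.9 FPKM in 4T1 and 0.03, 0 and 0 FPKM in EMT6 and at 63.8, 68.5 and 67.5 FPKM in 4T1 and 0.02, 0 and 0 FPKM in EMT6. Their counts were 32851 against 3 and 19735 against 2, ratios of 12650 (95% counting interval 4329 to 61350) and 11400 (95% counting interval 3156 to 94140). Another collagen IV chain gene, Col4a5, was instead at 0.187 ± 0.025 FPKM in 4T1 and 31.0 ± 0.47 FPKM in EMT6 (-7.40 ± 0.10). Each line thus read a different part of the collagen IV family. Lama5 and the perlecan gene Hspg2 were read in both and were higher in 4T1 (0.71 ± 0.07 and 0.59 ± 0.09). Netrin Ntn1 was at 0.09 ± 0.010 FPKM in 4T1 and 12.5 ± 1.1 FPKM in EMT6.

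Matrix glycoproteins were called higher in EMT6 for 18 of 24 tested genes and higher in 4T1 for 6, median -1.67. Fn1 (overlaps Apol7d), fibronectin, which is used as a mesenchymal marker, was higher in 4T1: 411, 494 and 426 FPKM in 4T1 and 232, 205 and 217 FPKM in EMT6 (1.03 ± 0.08). The KO libraries of the lines differed by -0.04. Tnc (overlaps 8030451A03Rik), tenascin C, was at 12.2, 14.5 and 14.3 FPKM in 4T1 with 1 count in EMT6, a ratio of 5481 (95% counting interval 983 to 216500). Spp1 (overlaps Gm42793), osteopontin, was abundant in both and higher in EMT6, 317, 305 and 274 FPKM in 4T1 and 827, 823 and 937 FPKM in EMT6 (-1.53 ± 0.07), as was thrombospondin Thbs1 (45.7 ± 1.6 FPKM in 4T1 and 152 ± 21 FPKM in EMT6, -1.73 ± 0.09). Emilin1, an elastic fibre protein, was at 0.0233 ± 0.012 FPKM in 4T1 and 20.2 ± 1.8 FPKM in EMT6. Cthrc1, a secreted collagen repeat protein, was at 17.1 ± 1.5 FPKM in EMT6, a ratio of 1222 (95% counting interval 219 to 48310). Postn, periostin, had 11 counts in 4T1 and 0 in EMT6.

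Proteoglycans and hyaluronan genes were called in both directions, 9 higher in each line of 19 tested. Of all tested genes, 38.2% were called higher in 4T1 and 36.8% in EMT6. Ogn (overlaps Cenpp), osteoglycin, was at 0.02, 0.03 and 0.11 FPKM in 4T1 and 133, 136 and 144 FPKM in EMT6 (-11.29 ± 0.15), and Vcan (overlaps Gm4117), versican, at 0.03 ± 0.020 FPKM in 4T1 and 12.6 ± 0.93 FPKM in EMT6 (-8.72 ± 0.15). Cd44, the hyaluronan receptor, was higher in 4T1, 148, 158 and 144 FPKM in 4T1 and 31.8, 32.5 and 33.2 FPKM in EMT6 (2.21 ± 0.06), and so was the synthase Has2 (overlaps Has2os), 37.8 ± 2.2 FPKM in 4T1 and 13.2 ± 1.6 FPKM in EMT6 (1.53 ± 0.08). Sdc1, syndecan 1, was at 86.0 ± 1.3 FPKM in 4T1 and 79.8 ± 2.7 FPKM in EMT6 and not called (edgeR adjusted p = 0.0949).

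Matrix-degrading proteases were mostly higher in 4T1. Of 40 metalloproteases and inhibitors, 30 were tested, 20 higher in 4T1 and 9 in EMT6, with a median of 0.85. Mmp3 (stromelysin 1) stood at 157, 169 and 141 FPKM in 4T1 and 0.23, 0.03 and 0.09 FPKM in EMT6 (10.45 ± 0.19) and Mmp9 (gelatinase B) at 57.1, 58.0 and 47.0 FPKM in 4T1 and 0.1, 0.11 and 0.06 FPKM in EMT6 (9.24 ± 0.17). Mmp13 (collagenase 3) was at 9.28 ± 1.1 FPKM in 4T1 and 0.0267 ± 0.031 FPKM in EMT6 (8.19 ± 0.29). The lowest 4T1 library exceeded the highest EMT6 library for each of them. Mmp2, the other gelatinase gene (overlaps Gm45472), went the other way, with 3 counts in 4T1 and 1.60 ± 0.56 FPKM in EMT6, a ratio of 82.8 (95% counting interval 28.1 to 404). The membrane-anchored Mmp14 (overlaps ENSMUSG00000120849) differed little, 37.7 ± 0.30 FPKM in 4T1 and 33.0 ± 1.0 FPKM in EMT6 (0.19 ± 0.06), and its call was lost without 4T1 replicate 2 (edgeR adjusted p = 0.0502); the KO libraries stood at -0.48. Adam19 was at 14.1 ± 0.51 FPKM in 4T1 with 0 counts in EMT6 (at least 566-fold), and Adamts5, an aggrecan-cleaving protease, was at 8.31 ± 0.82 FPKM in EMT6 with 1 count in 4T1, a ratio of 4003 (95% counting interval 718 to 158200).

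Genes of the plasminogen system, serpins and cathepsins had 16 of 28 tested members higher in 4T1 and 11 in EMT6. Of all tested genes, 38.2% and 36.8% were. Urokinase Plau was at 101, 95.6 and 92.1 FPKM in 4T1 and 47.5, 48.0 and 42.8 FPKM in EMT6 (1.06 ± 0.07), and its receptor Plaur at 89.2, 87.0 and 85.8 FPKM in 4T1 and 40.2, 42.8 and 34.8 FPKM in EMT6 (1.15 ± 0.07). Neither gene overlapped between the lines, though Plau stood at -0.18 between the KO libraries. The tissue activator Plat was higher in EMT6 (6.05 ± 0.56 FPKM in 4T1 and 12.1 ± 0.62 FPKM in EMT6, -1.01 ± 0.08). The inhibitor gene Serpine2 was at 13.1 ± 0.20 FPKM in 4T1 with 0 counts in EMT6 (at least 612-fold). Of the cathepsins, Ctsc, which activates granule proteases, was at 8.71 ± 0.24 FPKM in 4T1 with 0 counts in EMT6 (at least 286-fold), and Ctsb (overlaps Fdft1) was at 86.3 ± 2.9 FPKM in 4T1 and 109.7 ± 2.6 FPKM in EMT6 (-0.35 ± 0.06).

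Of 25 integrin genes, 18 were tested, 8 higher in 4T1 and 6 in EMT6, near the shares of all tested genes (38.2% and 36.8%). The laminin receptor chains Itga6 (overlaps Gm13663) and Itgb4 were at 67.8 ± 2.1 FPKM in 4T1 and 4.51 ± 0.14 FPKM in EMT6 (3.91 ± 0.07) and at 20.7 ± 0.76 FPKM in 4T1 and 4.11 ± 0.22 FPKM in EMT6 (2.33 ± 0.07), respectively. The collagen receptor chain Itga2 was at 45.8, 50.8 and 44.3 FPKM in 4T1 and 0.22, 0.12 and 0.22 FPKM in EMT6 (8.01 ± 0.13). Itgb7, a chain known from lymphocytes, was at 0.42, 0.34 and 0.71 FPKM in 4T1 and 99.2, 99.6 and 123 FPKM in EMT6 (-7.79 ± 0.16). The common chain Itgb1 was high in both, 430.4 ± 2.7 FPKM in 4T1 and 266 ± 7.1 FPKM in EMT6 (0.69 ± 0.06).

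**Figure D4:**
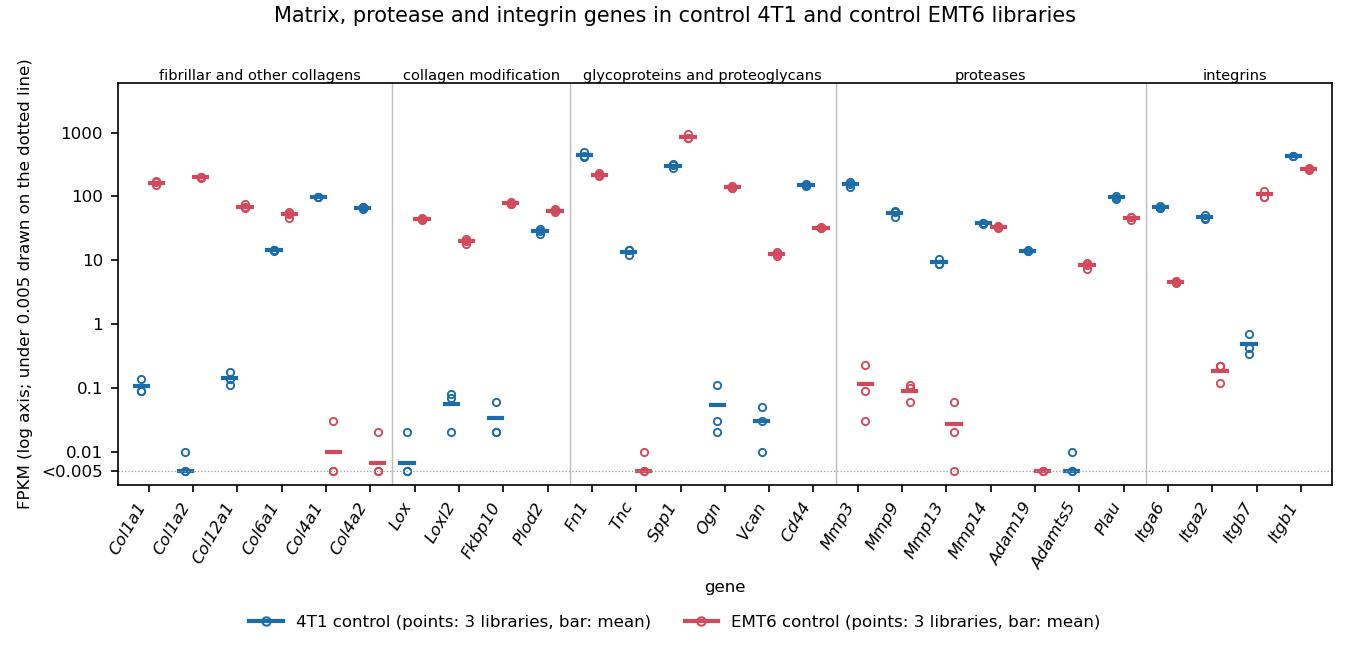
FPKM (log axis, values under 0.005 on the dotted line) of collagens, collagen-modifying enzymes, other matrix genes, proteases and adhesion receptors in control 4T1 (blue) and control EMT6 (red); points are the 3 libraries of a line and bars their mean. Col1a1, Col1a2 and Lox are above 40 FPKM in EMT6 and under 0.15 FPKM in 4T1, and Col4a1, Col4a2, Mmp3 and Mmp9 are above 40 FPKM in 4T1 and far lower in EMT6.

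Glycolysis genes were called higher in EMT6 for 24 of 32 tested members (40 listed) and higher in 4T1 for 5; 13 and 3 of them reached a log2 change of at least 1, and the median was -0.71. The lactate exporter Slc16a3 (MCT4; overlaps Csnk1d) was at 0.1, 0 and 0.04 FPKM in 4T1 and 50.5, 59.2 and 43.5 FPKM in EMT6 (-9.95 ± 0.33). It had the largest difference of the list, and no 4T1 library exceeded 0.1 FPKM. The glucose transporter Slc2a1 was at 38.6, 42.1 and 47.2 FPKM in 4T1 and 55.7, 59.7 and 47.3 FPKM in EMT6 (-0.35 ± 0.09), pyruvate kinase Pkm (overlaps Gm49759) at 571 ± 40.4 FPKM in 4T1 and 787 ± 51 FPKM in EMT6 (-0.46 ± 0.07) and hexokinase Hk2 at 21.9 ± 2.6 FPKM in 4T1 and 21.1 ± 0.78 FPKM in EMT6, not called (edgeR adjusted p = 0.511). Ldha overlapped between the lines, 373, 400.2 and 445 FPKM in 4T1 and 439, 514 and 435 FPKM in EMT6. It was called at -0.19 ± 0.08, and this call was lost without 4T1 replicate 1, 4T1 replicate 2 or EMT6 replicate 2 (edgeR adjusted p = 0.162, 0.0703 and 0.139). Car9, a carbonic anhydrase of hypoxic cells, was higher in 4T1, 43.3, 48.8 and 53.7 FPKM in 4T1 and 1.27, 0.93 and 1.33 FPKM in EMT6 (overlaps Gm12454; 5.37 ± 0.12). Gapdh is listed at only 3.09 ± 0.52 FPKM in 4T1 and 8.48 ± 1.6 FPKM in EMT6 and has many near-identical copies, so its level is uncertain.

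The pentose phosphate pathway makes NADPH and ribose. With glycogen and hexosamine genes, 20 of 24 were tested, 15 higher in EMT6 and 2 in 4T1, median -0.94. Its entry enzyme G6pdx (overlaps Ikbkg) was at 41.0, 40.0 and 39.4 FPKM in 4T1 and 202, 216 and 194 FPKM in EMT6 (-2.35 ± 0.06, 5.09-fold). The glycogen branching enzyme Gbe1 was at 3.89 ± 0.45 FPKM in 4T1 and 39.8 ± 2.2 FPKM in EMT6 (-3.36 ± 0.08). In the citrate cycle and malate shuttle, 22 of 32 tested genes were higher in EMT6 and 5 in 4T1. Pyruvate carboxylase Pcx (overlaps Lrfn4) was at 0.51, 0.35 and 0.57 FPKM in 4T1 and 18.0, 19.2 and 23.3 FPKM in EMT6 (-5.41 ± 0.14), malic enzyme Me1 at 11.1 ± 0.82 FPKM in 4T1 and 43.6 ± 1.7 FPKM in EMT6 (-1.97 ± 0.07) and Sdha at 44.7 ± 1.0 FPKM in 4T1 and 66.8 ± 2.0 FPKM in EMT6 (-0.58 ± 0.06). Nuclear genes of the respiratory chain had 29 of 50 higher in EMT6 and 10 in 4T1 with a median of -0.26. Ndufb9, a complex I subunit, was the member furthest to the 4T1 side (211 ± 12 FPKM in 4T1 and 88.3 ± 3.7 FPKM in EMT6, 1.25 ± 0.06).

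Serine synthesis feeds one-carbon units to nucleotides and methylation. Phgdh, its entry enzyme, was at 51.7, 46.4 and 52.3 FPKM in 4T1 and 135, 153 and 167 FPKM in EMT6 (-1.60 ± 0.07), and Psat1 at 61.7, 58.1 and 69.7 FPKM in 4T1 and 199, 202 and 228 FPKM in EMT6 (-1.73 ± 0.07). The mitochondrial folate enzyme Mthfd2 (overlaps Gm43890) was at 16.6, 17.1 and 17.9 FPKM in 4T1 and 87.0, 80.4 and 101 FPKM in EMT6 (-2.38 ± 0.08). All 3 genes were higher in every EMT6 library than in any 4T1 library, where 76.7% of all tested genes did not overlap. Shmt1 (overlaps Smcr8), the cytosolic serine hydroxymethyltransferase, was higher in 4T1 (20.0 ± 0.65 FPKM in 4T1 and 2.37 ± 0.30 FPKM in EMT6, 3.06 ± 0.09), while the mitochondrial Shmt2 was higher in EMT6 (99.7 ± 6.4 FPKM in 4T1 and 185 ± 13 FPKM in EMT6, -0.89 ± 0.06). Aldh1l2 (overlaps Nopchap1), which oxidises formyl folate in mitochondria, was at 0.313 ± 0.15 FPKM in 4T1 and 32.1 ± 10.2 FPKM in EMT6 (-6.64 ± 0.45). Of 21 tested genes (24 listed), 13 were higher in EMT6 and 5 in 4T1.

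Genes of amino acid uptake and glutamine metabolism were likewise higher in EMT6 for 18 of 27 tested members (36 listed) and higher in 4T1 for 5, median -1.02. Slc7a11, the cystine importer xCT, stood at 0.39, 0.47 and 0.45 FPKM in 4T1 and 67.8, 57.4 and 62.5 FPKM in EMT6 (-7.17 ± 0.10, 144-fold). The leucine importer Slc7a5 was at 37.2 ± 1.3 FPKM in 4T1 and 150.4 ± 19 FPKM in EMT6 (-2.02 ± 0.08) and asparagine synthetase Asns at 53.4, 52.2 and 59.2 FPKM in 4T1 and 193, 199 and 258 FPKM in EMT6 (-1.98 ± 0.10). EMT6 replicate 3 was the highest library for Asns, as it was for Phgdh, Psat1 and Mthfd2. Gpt2, the mitochondrial alanine transaminase, was at 4.05 ± 0.34 FPKM in 4T1 and 51.9 ± 9.1 FPKM in EMT6 (-3.68 ± 0.13), the glutamine importer Slc1a5 at 30.6 ± 2.0 FPKM in 4T1 and 62.2 ± 3.8 FPKM in EMT6 (-1.02 ± 0.06), and argininosuccinate synthase Ass1 at 3.80 ± 0.43 FPKM in 4T1 and 20.1 ± 1.8 FPKM in EMT6 (-2.40 ± 0.11). Glutamine synthetase Glul was higher in 4T1 (16.8 ± 1.1 FPKM in 4T1 and 9.5 ± 0.54 FPKM in EMT6, 0.81 ± 0.08). The glutamine carrier Slc38a1 (overlaps ENSMUSG00000120070) stood in 4T1 at 11.1 ± 0.59 FPKM with 0 counts in EMT6 (at least 1078-fold).

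Lipid genes were called in both directions. Of 33 tested cholesterol genes, 16 were higher in EMT6, 6 in 4T1 and 11 were not called, with a median of -0.19. Squalene epoxidase Sqle was at 48.3 ± 0.61 FPKM in 4T1 and 49.6 ± 5.0 FPKM in EMT6 and not called (edgeR adjusted p = 0.603). Of 40 tested fatty acid genes, 22 were higher in EMT6 and 11 in 4T1, beside 36.8% and 38.2% of all tested genes. Fatty acid synthase Fasn was at 48.7, 56.1 and 56.0 FPKM in 4T1 and 49.1, 51.4 and 33.7 FPKM in EMT6 and not called (0.26 ± 0.18, edgeR adjusted p = 0.253), with EMT6 replicate 3 below the rest. The desaturase Scd1 was at 26.4, 26.5 and 24.7 FPKM in 4T1 and 161, 155 and 138 FPKM in EMT6 (-2.55 ± 0.07). Fabp5, a fatty acid carrier, was at 11.9, 11.8 and 13.2 FPKM in 4T1 with 0 counts in EMT6 (at least 249-fold).

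Genes of glutathione synthesis, detoxification and iron handling, many of them targets of the oxidant sensor NRF2, were higher in EMT6 for 38 of 56 tested members (67 listed) and higher in 4T1 for 13, with 28 and 7 at a log2 change of at least 1 and a median of -1.0. Nqo1, a quinone reductase, was at 39.7, 31.1 and 28.7 FPKM in 4T1 and 205, 216 and 195 FPKM in EMT6 (-2.63 ± 0.10), and haem oxygenase Hmox1 at 9.44, 8.81 and 10.7 FPKM in 4T1 and 128, 130.2 and 125 FPKM in EMT6 (-3.73 ± 0.08). Gclc, the catalytic subunit of glutathione synthesis, was at 16.5 ± 0.55 FPKM in 4T1 and 37.3 ± 1.7 FPKM in EMT6 (-1.18 ± 0.06). The glutathione transferase Gstm1 differed most of these, 7.23, 5.17 and 5.45 FPKM in 4T1 and 478, 491 and 424 FPKM in EMT6 (-6.28 ± 0.11, 77.7-fold). None of these genes overlapped between the lines, as was the case for 76.7% of all tested genes. The ferritin light chain Ftl1 (overlaps Gm10252) was, after Eef1a1, the most abundant nuclear-encoded transcript of EMT6, 351 ± 28 FPKM in 4T1 and 1933 ± 135 FPKM in EMT6 (-2.47 ± 0.07). On the 4T1 side stood the drug efflux pump Abcb1b, at 18.5 ± 0.22 FPKM with 3 counts in EMT6, a ratio of 2554 (95% counting interval 873 to 12390). The antioxidant response element, searched as TGACNNNGC on both strands, was in 11 of 55 windows of the list (20.0%) and in 3369 of 27025 of all genes (12.5%).

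Nucleotide genes were near the background, with 20 of 42 tested members higher in EMT6 and 15 in 4T1. Hprt, the purine salvage enzyme whose loss gives resistance to 6-thioguanine, the analogue used to select 4T1, was at 53.6, 49.6 and 54.3 FPKM in 4T1 and 51.5, 54.5 and 55.1 FPKM in EMT6. The libraries overlapped and the difference of -0.04 ± 0.07 was not called (edgeR adjusted p = 0.65). Xanthine dehydrogenase Xdh was at 0.96, 0.91 and 0.99 FPKM in 4T1 and 63.7, 59.9 and 67.4 FPKM in EMT6 (-6.06 ± 0.08), and uridine phosphorylase Upp1 at 36.8, 31.9 and 34.5 FPKM in 4T1 and 4.24, 4.13 and 3.74 FPKM in EMT6 (3.09 ± 0.09). Those 2 genes separated the lines in opposite directions. Adenylate kinase Ak1 was at 2.92 ± 0.44 FPKM in 4T1 and 41.1 ± 3.2 FPKM in EMT6 (-3.82 ± 0.10).

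**Figure D5:**
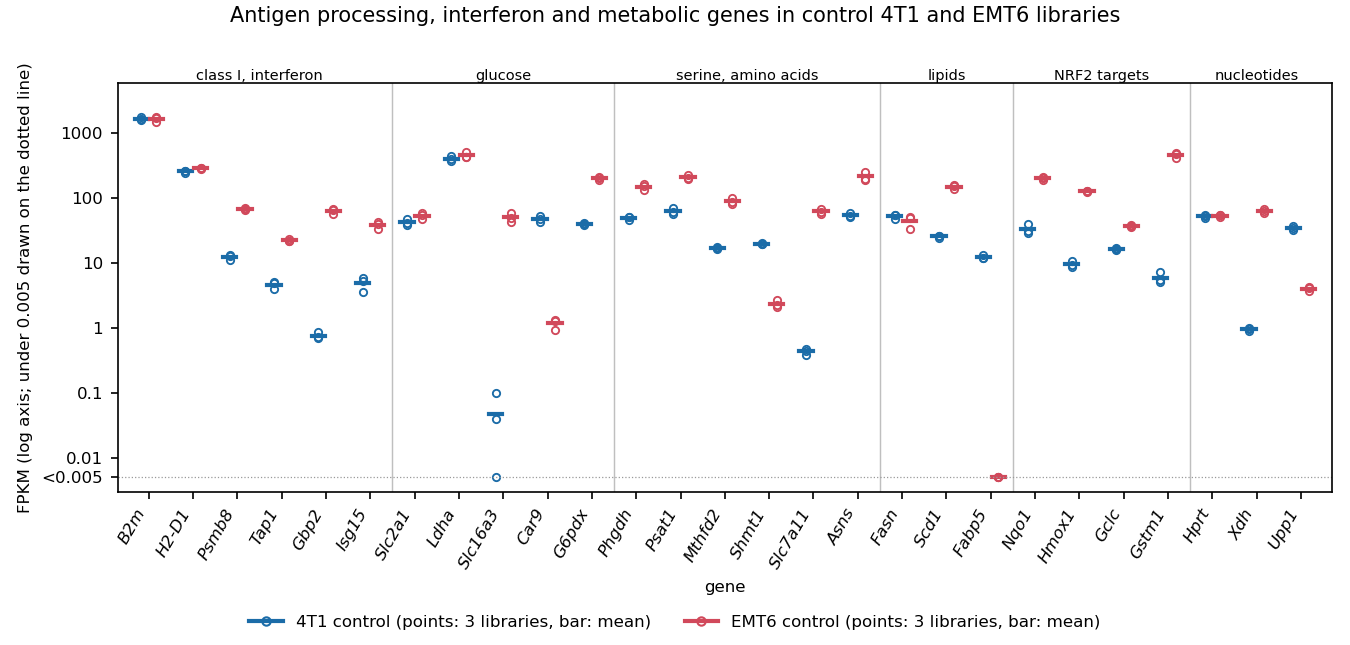
FPKM (log axis, values under 0.005 on the dotted line) of antigen processing, interferon-stimulated and metabolic genes in control 4T1 (blue) and control EMT6 (red); points are the 3 libraries of a line and bars their mean. Slc16a3, Slc7a11 and Xdh are under 1 FPKM in 4T1 and above 40 FPKM in EMT6, Fabp5 is at 0 in EMT6, and B2m, Fasn and Hprt overlap.

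Among tumour suppressor genes, Trp53 (overlaps ENSMUSG00000121121) was at 11.2, 10.6 and 9.99 FPKM in 4T1 and 49.4, 45.0 and 47.1 FPKM in EMT6, higher in EMT6 by a log2 difference of -2.15 ± 0.07 (4.45-fold). Of its pathway and the cell cycle inhibitors, 20 of 27 tested genes were higher in EMT6 and 6 in 4T1, median -0.71. The p53 targets Cdkn1a and Mdm2 differed by -0.22 ± 0.07 and -0.57 ± 0.07, less than Trp53 itself. Perp, a p53 target and desmosome gene, was at 58.5 ± 5.4 FPKM in 4T1 and 0.167 ± 0.075 FPKM in EMT6. Cdkn2b had no count in any library, and Cdkn2a had 0 counts in 4T1 and 21 in EMT6.

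Oncogenes and growth regulators were higher in 4T1 for 30 of 50 tested genes (55 listed) and higher in EMT6 for 15, median 0.52. Myc stood at 190.4, 187 and 189 FPKM in 4T1 and 70.2, 60.6 and 64.8 FPKM in EMT6 (1.53 ± 0.06), and cyclin Ccnd1 (overlaps LTO1) at 311, 305 and 313 FPKM in 4T1 and 73.3, 69.9 and 63.4 FPKM in EMT6 (2.17 ± 0.07). The related cyclin Ccnd2 was at 22.9 ± 0.77 FPKM in 4T1 with 2 counts in EMT6, a ratio of 5577 (95% counting interval 1544 to 46060). Nedd4 (overlaps Gm36936), the ubiquitin ligase gene targeted elsewhere in the study, was read in every control library, 94.4, 97.6 and 93.5 FPKM in 4T1 and 122, 121 and 116 FPKM in EMT6 (-0.34 ± 0.06, and 0.98 between the KO libraries). Proliferation genes differed little: of 38 tested, 18 were higher in 4T1 and 10 in EMT6 with a median of 0.15, and Mki67 was at 116 ± 12 FPKM in 4T1 and 55.5 ± 5.2 FPKM in EMT6 (1.06 ± 0.08). Of 51 tested ribosomal protein genes, 22 were higher in EMT6, 7 in 4T1 and 22 were not called. Of 26 housekeeping genes, 9 were higher in 4T1, 8 in EMT6 and 9 were not called; Actb was at 1316 ± 83 FPKM in 4T1 and 1186 ± 215 FPKM in EMT6 and not called (edgeR adjusted p = 0.299), and Pgk1 was at 39.0 ± 3.7 FPKM in 4T1 and 119 ± 17 FPKM in EMT6 (-1.62 ± 0.10).

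Markers of other cells were checked because fibroblast-like collagen and defence genes were high in EMT6. Of 21 leukocyte markers, 3 were tested; Ptprc (CD45) was at most 0.07 FPKM and Csf1r (overlaps Hmgxb3) at most 0.58 in any library. The summed level of the leukocyte list was 13.03 to 14.97 FPKM in 4T1 and 18.19 to 22.5 in EMT6, most of it Cd68 (11.5 ± 1.0 FPKM in 4T1 and 19.4 ± 2.1 FPKM in EMT6), which stood at 1.23 between the KO libraries. Of 14 endothelial markers, 3 were tested, with sums of 3.88 to 4.62 FPKM in 4T1 and 2.23 to 2.92 in EMT6, and Pecam1 and Cdh5 were at most 0.29 FPKM. The fibroblast list of 15 had 6 tested, 5 higher in EMT6 and 0 in 4T1, with sums of 14.46 to 16.38 and 376.1 to 406.3 FPKM. Its members Col1a1 and Col1a2 made up most of the EMT6 sum, while Dcn had no count in EMT6 and Pdgfra was not called. No adipocyte or erythroid marker of 15 was tested, and Adipoq had no count. The neural and muscle list of 21 had 7 tested and sums of 35.1 to 44.1 FPKM in 4T1 and 5.53 to 6.3 in EMT6, most of it the cardiac troponin gene Tnnt2 in 4T1 (35.0 ± 4.1 FPKM in 4T1 and 0.35 ± 0.010 FPKM in EMT6), while Rbfox3 and Myod1 had no count. The part of other cells in the results was not tested beyond these values.

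Named by size over all genes, the furthest on the 4T1 side included the serine protease Tmprss11e, at 139.8, 146 and 135 FPKM with 1 count in EMT6, a ratio of 24830 (95% counting interval 4457 to 980900). The adhesion receptors Adgrl2 and Alcam, the mannosidase Man1a and the ubiquitin ligase Trim35 were at 13.3 ± 0.63 FPKM, 23.8 ± 1.0 FPKM, 19.6 ± 0.96 FPKM and 23.8 ± 1.4 FPKM in 4T1. All 4 had 0 counts in EMT6 (at least 1073-fold, at least 958-fold, at least 1069-fold and at least 622-fold higher in 4T1). On the EMT6 side, beside Sema3c, Ptx3, Ly6a and Col1a2, stood the nuclear receptor Rora, the phospholipid phosphatase Plpp3, the aldo-keto reductase Akr1c14 and the WNT agonist Rspo2. They were at 10.3 ± 1.1 FPKM, 31.2 ± 2.9 FPKM, 24.6 ± 1.3 FPKM and 13.6 ± 1.5 FPKM with 0 counts in 4T1 (at least 668-fold, at least 489-fold, at least 396-fold and at least 345-fold higher in EMT6). In all, 97 genes had at least 5 FPKM in 4T1 and at most 3 counts over the EMT6 libraries, and 86 had the reverse. The most abundant nuclear-encoded transcript of 4T1 was Lgals1 (galectin 1), 4048 ± 169.6 FPKM in 4T1 and 1704 ± 124 FPKM in EMT6 (1.25 ± 0.07), and that of EMT6 the elongation factor gene Eef1a1, 3608 ± 107 FPKM in 4T1 and 4995 ± 441 FPKM in EMT6 (-0.47 ± 0.07).

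By chromosome, the calls leaned to either line. On chromosome 1, 495 of 763 tested genes (64.9%) were higher in 4T1 and 146 in EMT6, with a median of 0.49, and on chromosome 15 the median was -0.42, with 303 of 555 higher in EMT6 (54.6%). In windows of 25 neighbouring tested genes, the highest median, 2.38, was on chromosome 6 from Skap2 to Ggct, 51834402 to 54969935 in the tables' coordinates. This window holds the Hoxa genes counted above, which passed the filter on low counts through the line in which they were high. Its rank is thus not separate from those genes. The next highest medians lay on chromosome 9, from Casp12 to Kdm4dl (1.56), which holds the Mmp3 and Mmp13 cluster, and from St14 to Chek1 (1.27). The lowest, -2.25, lay on chromosome 3 from Slc16a4 to Sars, which holds Gstm1 and Csf1. Gene copy number was not measured.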

How the data were processed

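RNA-seq of 6 control libraries, 3 of 4T1 and 3 of EMT6, was compared; groups came from the sample labels. Per the file headers, each line has 1 deposited table of raw counts and FPKM for 56691 genes, and all gene identifiers, lengths and symbols were the same in both. The deposited FPKM equal the deposited counts over exon length and total to within 0.005 for all 680292 values, so levels follow directly from the counts. Per the submitters' processing notes, cutadapt 1.9.1, HISAT2 2.2.1, HTSeq 0.6.1 and DESeq2 were used with GRCm38; their roles and the strand setting are not stated in those notes. Only 2.83% of 52073 shared gene identifiers had the start and end of the GRCm38 annotation, so coordinates are printed as in the tables, without a build. Where a named gene overlaps another counted gene, the partner is given, since reads of the pair may not be told apart.

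Counts were fitted with edgeR 4.0.16 (R 4.3.3; limma 3.58.1): filterByExpr, TMM, robust quasi-likelihood fit of the 6 libraries, contrast 4T1 minus EMT6, Benjamini-Hochberg adjustment over 13301 genes. The fit was tested on simulated data in which few genes differed, unlike these libraries, so that test does not cover a comparison with most genes called. A gene with 0 counts in a line is given as a lower bound, at 3 counts per library, and one with 1 to 3 counts in a line as a count ratio with its exact 95% interval. Alternatives were other scalings and filters, DESeq2 1.42.0, limma, each library left out, each change centred on its chromosome's median, and the KO libraries in place of the controls. The 49 gene lists, their members and the promoter motifs were chosen with earlier results of these data known, so no list was tested. Genes were named from marked members of each list, up to 2 further members with the largest called change at 5 FPKM or more, the 10 largest changes each way over all genes at 10 FPKM or more, and the 5 highest levels per line; members said to be chosen after their values were seen are exceptions. Replicate numbers did not pair the lines (correlations of deviations -0.108, -0.0326 and -0.00935). Some genes that the rule names are not reported here.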

Additional observations from a re-analysis of the deposited data

How the results depend on the processing

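Counts of called genes kept within 1.5 times of 9973 under other scalings (9946 with DESeq2 size factors, 9940 with total counts), other tests (9862 with DESeq2, 9981 with limma-voom, 9890 and 9853 with limma on log2(FPKM + 1) and log2(FPKM + 0.1)), without the low-count filter (10920) and with overlapping genes left out (7194 of 9442 tested; chosen after seeing the data). With each library left out in turn the count ran from 9447 to 9890. With the replicate block it was 9758; the numbers do not pair the libraries. At a mean of at least 5 FPKM in the higher line, where fewer genes were tested, 3356 genes were called higher in 4T1 and 1967 had a log2 change of at least 1. That class held 2409 genes with limma on log2(FPKM + 1), and 3076 were called by edgeR's test against a log2 change of 1.

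With the KO libraries of each line in place of the controls, 7267 of 9784 called genes (74.3%) were called in the same direction and 1114 in the opposite one; of those with a log2 change of at least 1, 3355 of 3772 and 130. Log2 changes of named genes that had the other sign there were 6.57 for Lcn2, -0.11 for Twist1, 2.49 for Cxcl5, -1.25 for Cxcl10, -1.87 for Il11, -0.40 for Tgfb3, -0.46 for B2m, -0.18 for H2-K1, 2.42 for Saa3, -0.038 for Fn1, -1.02 for Sdc1, -0.48 for Mmp14, -0.18 for Plau, 0.42 for Idh2, -1.50 for Hmgcs1, 0.37 for Cpt1a, -0.32 for Aprt, 0.33 for Tk1, -0.96 for Hras, 0.98 for Nedd4, -0.76 for Actb, -0.38 for Tnfsf9, -0.012 for Vcam1, -0.004 for Hsp90ab1, 1.23 for Cd68 and 2.03 for Fbln1. Not all of these are reversals. Twist1, Fn1, Vcam1 and Hsp90ab1 were not called between the KO libraries (edgeR adjusted p = 0.155, 0.416, 0.834 and 0.921). Il11, Tgfb3, B2m, H2-K1, Sdc1 and Actb were not called between the controls, so their sign there was not settled. Centring each change on the median of its chromosome moved 103 of 263 tested named genes by more than the spread between libraries, with no called gene changing sign; the list medians of interleukins and of proteoglycans turned to -0.05 each. The cause was not tested.

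With 3 libraries a line, small changes depended on single libraries: without 4T1 replicate 2, 7 of 263 tested named genes lost their call, the most for any library left out, and no called gene of them changed sign in the fits that left out 1 library. The 3-count limit of 0.156 to 0.219 CPM bounds what can be said of genes at 0.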

Other observations

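The deposited tables hold a gene with no symbol, ENSMUSG00000120992 on chromosome 17 (35215654 to 35219393 in the tables' coordinates), that stood at 1395, 1290 and 1265 FPKM in 4T1 and 9.1, 9.7 and 7.96 FPKM in EMT6. Its counts were 68564, 58764 and 52767 in 4T1 and 396, 540 and 465 in EMT6, and the difference was 7.20 ± 0.09 (log2 ± SE, edgeR).

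Of 15 tested genes of the mitochondrial genome, 12 were called higher in 4T1 and 0 in EMT6, with a median log2 change of 1.375 (edgeR). Over all tested genes the shares were 38.2% and 36.8%. mt-Nd2, a complex I subunit, was at 2582 ± 651 FPKM in 4T1 and 652 ± 151 FPKM in EMT6. mt-Co1, the most abundant transcript of both lines, was at 7175 ± 2193 FPKM in 4T1 and 5955 ± 1155 FPKM in EMT6 and was not called. The mitochondrial share of counts was 2.2% to 3.64% in 4T1, highest in replicate 2, and 1.26% to 1.88% in EMT6, highest in replicate 1. mt-Co3 and mt-Atp6 were listed at only 16.2 ± 1.81 and 25.3 ± 4.02 FPKM in 4T1.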
